A study of Mus musculus with 15 samples.

Results

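Messenger RNA levels of 10 genes of lipid transport were followed in whole brains of young and old mice that either had unrestricted food (ad libitum, AL) or were fed on alternate days (EOD, 24 h with food and then 24 h without, named intermittent fasting or IF in the labels). The genes are the apolipoproteins Apod, Apoe and Clu and the ATP-binding cassette transporters Abca1, Abca2, Abca7, Abca8a, Abca8b, Abca9 and Abcg1. They were chosen by name, with age and diet differences of these same mice already known, and make up 10 of the 43629 genes in the count tables. Each name matched 1 gene, and all 10 were among the 15864 genes with enough reads to be tested. Because of how the genes were chosen, their age and diet differences are a description of these mice, and the test values beside them only say where each gene stood among all genes.

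All animals were wild-type male C57BL/6J mice on standard chow, with 1 library per mouse. The labels give 3 months as the age of the 4 young AL and 3 young EOD mice and 24 months as that of the 4 old AL and 4 old EOD mice, and EOD feeding began at 2 months, so that the young EOD mice had been on the diet only briefly. The question was whether the diet altered the transcriptional differences that come with age. Whole-brain RNA mixes all cell types, so that more cells of a type and more RNA per cell cannot be told apart.

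Lipoproteins of the brain are made locally, mainly by astrocytes, because those of the blood do not cross the blood-brain barrier. Apoe and Clu (also called apolipoprotein J) are the main secreted carriers, transporters such as Abca1 and Abcg1 load them with cholesterol and phospholipid, and receptors of the low-density lipoprotein family take up the particles. Apod is a lipocalin that binds small hydrophobic ligands and is not related in sequence to the other apolipoproteins. Abca2 is best known from myelinating oligodendrocytes, Abca7 moves phospholipid, and Abca8a, Abca8b and Abca9 belong to a group of closely related A-class transporters that lie side by side in the genome and whose cargo is less well defined.

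Read totals on genes ranged from 5198748 to 13610729 per mouse, and the counts of the 10 genes from 67 to 10898. The third young AL mouse stood apart from the rest, with the largest total but the fewest genes detected and a median correlation of 0.9573 with the other mice, against 0.9801 to 0.9873 for the other 14. Values are therefore also given for 14 mice, without it. The fourth old AL mouse carried RNA of pituitary genes, which summed to 1039 CPM (the per-million share of counts, after TMM scaling of the library) against 0.719 to 18.2 in the other 14 mice. Markers of neurons, astrocytes, oligodendrocytes and their precursors, microglia, endothelial and mural cells were all detected in every group.

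Apod and Abca8a were higher in every old mouse than in any young mouse, under both diets. Apod rose 1.79-fold with age under AL and 1.70-fold under EOD, and Abca8a 2.46-fold and 2.11-fold. Apoe was higher in old AL mice by an estimated 1.29-fold but missed the threshold, and Clu, Abca1 and Abca8b lay near their young levels in old AL mice. No diet difference of the 10 genes passed the threshold at either age. The plot of every gene in every mouse shows these levels.

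**Figure D1:**
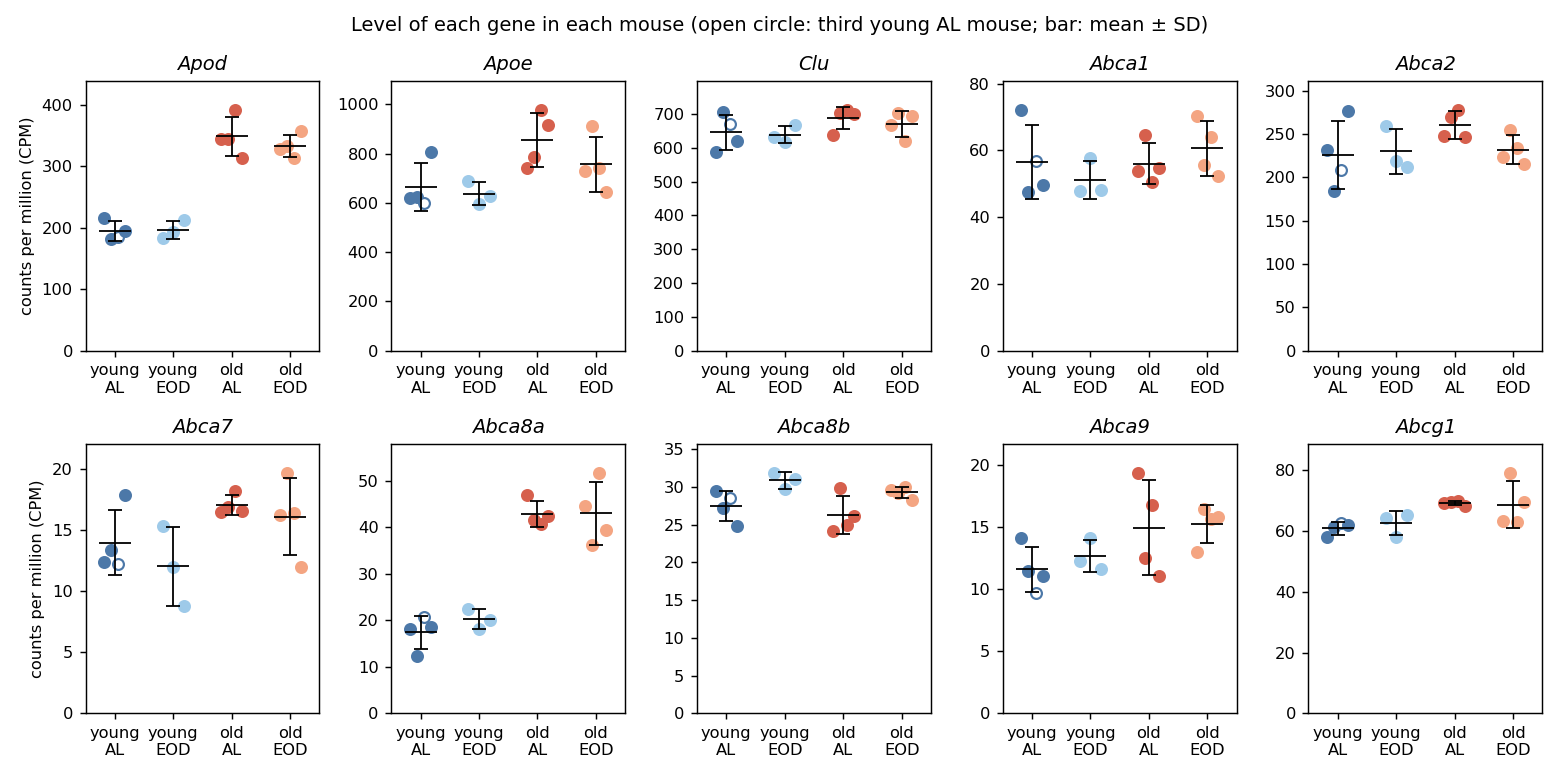
Level of each gene in each of 15 mice in CPM (vertical axes, each from 0), by group, with circles for mice, an open circle for the third young AL mouse, and bars for the group mean ± SD. For Apod and Abca8a all 8 old mice lie above all 7 young mice, while the groups overlap for the other genes when old mice are set against young ones.

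Of the 10 genes, 2 passed an FDR of 0.1 for age under AL, both higher (edgeR quasi-likelihood test, Benjamini-Hochberg adjustment over all genes), where 1.09% of all 15864 genes passed (173 genes). Under EOD the same pair passed, where 0.29% of all genes did (46 genes). An unadjusted edgeR p under 0.05 was found for 6 of the 10 under AL and 4 under EOD, where 9.52% and 5.74% of all genes had one. Without the third young AL mouse the pair again passed under both diets, and the share of all genes was 1.03% under AL and 0.484% under EOD. Since the genes were picked with these differences known, nothing is read from these counts. The median log2 difference with age over the 10 genes was 0.24 under AL and 0.25 under EOD, beside medians of -0.00957 and -0.000358 over all genes tested. Estimates lay above 0 for 8 of the 10 genes under AL and for 9 of 10 under EOD. The AL and EOD comparisons share no mice, but both came from 1 fit with a shared estimate of spread. The genes were picked with both age differences known, so that nothing is read from the likeness of these signs.

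**Figure D2:**
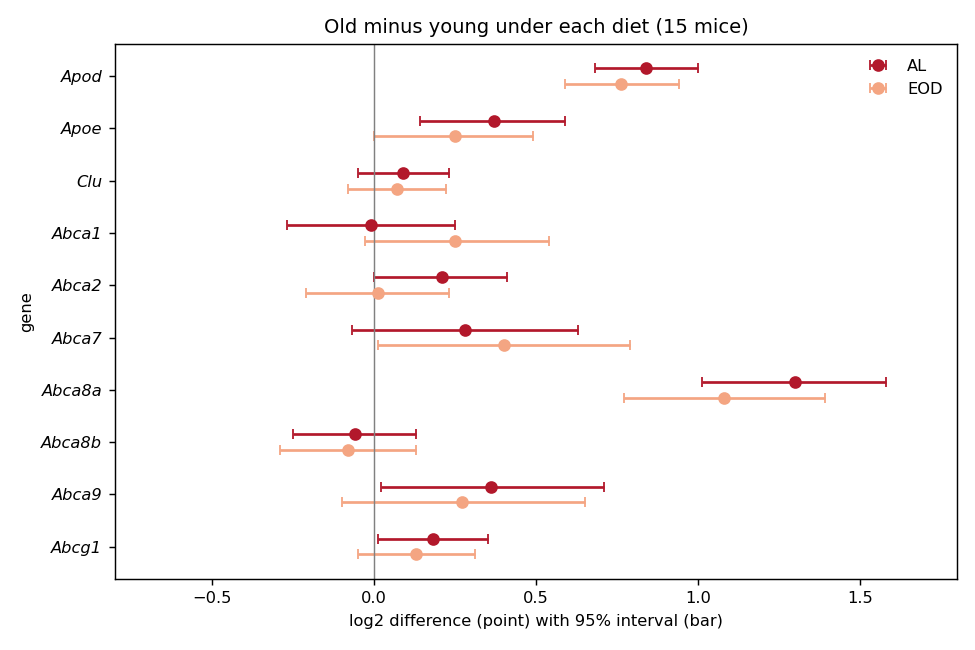
Log2 difference between old and young mice (horizontal axis) for each gene under AL (dark red) and EOD (light), with points for the estimate from all 15 mice and bars for its 95% interval. The intervals of Apod (0.68 to 1.0 under AL) and Abca8a (1.01 to 1.58) lie clear of 0, and those of Clu, Abca1 under AL and Abca8b span it.

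Among the secreted carriers, Apod (chromosome 16, 31296192 to 31314808, minus strand, GRCm38) showed the steepest rise. In young AL mice it stood at 216.4, 182.0, 184.8 and 194.6 CPM, and in young EOD mice at 183.8, 192.2 and 212.0. In old AL mice it reached 343.6, 343.7, 391.2 and 313.9 CPM, and in old EOD mice 327.5, 333.4, 313.0 and 356.8. The lowest old mouse, an EOD mouse at 313.0, thus lay well above the highest young mouse, an AL mouse at 216.4, and the diets overlapped at both ages. The log2 age difference was 0.84 (SE 0.0766, FDR 1.12e-06) under AL and 0.76 (SE 0.084, FDR 3.43e-05) under EOD. Ranked by p over all genes, Apod was number 6 under AL and number 5 under EOD. Without the third young AL mouse the AL difference was 0.82 (SE 0.0834, FDR 5.72e-06).

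Apoe (chromosome 7, 19696109 to 19699166, minus strand) was the most abundant of the 10 genes per length and varied more between mice of 1 group than Apod did. Young AL mice had 620.0, 622.7, 601.2 and 808.1 CPM, and young EOD mice 689.3, 596.6 and 626.3. Old AL mice had 739.9, 785.5, 977.4 and 916.0 CPM, and old EOD mice 729.7, 910.7, 739.8 and 644.0. Old and young overlapped under both diets, through the fourth young AL mouse in one case and the fourth old EOD mouse in the other. The age difference was 0.37 on the log2 scale under AL (95% interval 0.14 to 0.59, FDR 0.169) and 0.25 under EOD (0.00 to 0.49, FDR 0.866). Under AL the call depended on 1 mouse and on the method. Leaving out the fourth young AL mouse gave 0.48 and an FDR of 0.028, leaving out the third gave 0.33 and an FDR of 0.378, and DESeq2 on all mice gave an FDR of 0.0886 (range over 28 alternatives 0.000205 to 0.658).

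Clu (chromosome 14, 65968483 to 65981548, plus strand) was the steadiest of the carriers. Its level averaged 646 ± 51.3 CPM in young AL mice (SD, n = 4) and 688 ± 33.6 in old AL mice (n = 4). In EOD mice it averaged 639 ± 26.2 (n = 3) when young and 670 ± 37.3 (n = 4) when old. The age difference was 0.09 under AL (95% interval -0.05 to 0.23) and 0.07 under EOD (-0.08 to 0.22), so that a rise as large as that of Apod lay outside both intervals.

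Abca1 and Abcg1, transporters that load lipid onto such carriers, did not pass FDR 0.1 for age under either diet. Abca1 (chromosome 4, 53030787 to 53159895, minus strand), which passes cholesterol and phospholipid to lipid-poor apolipoproteins, ranged from 47.5 to 72.1 CPM in young AL mice and from 50.5 to 64.7 in old AL mice. In EOD mice it ranged from 47.7 to 57.6 CPM when young and from 52.2 to 70.4 when old. The intervals of its age difference were -0.27 to 0.25 under AL and -0.03 to 0.54 under EOD. Abcg1 (chromosome 17, 31057698 to 31115777, plus strand), which exports cholesterol to particles already lipidated, ran from 57.8 to 62.5 CPM in young AL mice and from 68.3 to 69.8 in old AL mice. These AL groups did not overlap, yet the difference was only 0.18 on the log2 scale (SE 0.0806, FDR 0.473). In EOD mice Abcg1 overlapped between the ages (57.9 to 65.3 against 62.8 to 79.1 CPM), with a difference of 0.13 (95% interval -0.05 to 0.31).

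With Apod and Abca8a, Abcg1 made 3 of 10 genes whose old AL mice all lay above all young AL mice, where 2.98% of all genes tested did so. Under EOD 2 of 10 genes did so, where the share over all genes was 4.75%.

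Abca2 (chromosome 2, 25428703 to 25448540, plus strand) ranged from 184 to 277 CPM in young AL mice and from 247 to 278 in old AL mice, with an age difference of 0.21 (FDR 0.52). In EOD mice the difference was 0.01 (95% interval -0.21 to 0.23), with 213 to 260 CPM in young and 216 to 254 in old mice. Abca7 (chromosome 10, 79996494 to 80015572, plus strand) was among the least abundant genes, at 12.2 to 17.9 CPM in young AL and 16.5 to 18.2 in old AL mice. Its age differences of 0.28 under AL (FDR 0.64) and 0.40 under EOD (FDR 0.861) had wide intervals, -0.07 to 0.63 and 0.01 to 0.79. In EOD mice it ranged from 8.81 to 15.3 CPM when young and from 12 to 19.7 when old. Between 67 and 214 reads per mouse stand behind these values, and the SD of Abca7 within groups was 0.269 on the log2 scale, beside a median of 0.187 over 2414 genes of like level.

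Abca8a, Abca8b and Abca9 lie in a row on the minus strand of chromosome 11 and had unlike age differences. Abca8a (110025634 to 110095978) counted 18.2, 12.3, 20.6 and 18.5 CPM in young AL mice and 22.5, 18.2 and 20 in young EOD mice. It counted 46.9, 41.5, 40.7 and 42.3 CPM in old AL mice and 44.6, 36.1, 51.7 and 39.4 in old EOD mice. The lowest old mouse (36.1) was thus well above the highest young mouse (22.5), and the diets overlapped at both ages. The log2 age difference was 1.30 (SE 0.137, FDR 9.52e-06) under AL and 1.08 (SE 0.151, FDR 0.00087) under EOD, rank 9 of all genes in both. Without the third young AL mouse it was 1.40 (SE 0.142, FDR 5.72e-06) under AL.

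Abca8b (109932190 to 109995845), the next gene downstream, showed no such rise. It stood at 29.4, 27.2, 28.5 and 24.8 CPM in young AL mice and at 24.2, 29.8, 25 and 26.2 in old AL mice. In EOD mice it ranged from 29.7 to 31.9 CPM when young and from 28.3 to 30.0 when old. The age differences were -0.06 under AL (95% interval -0.25 to 0.13) and -0.08 under EOD (-0.29 to 0.13), and neither interval reaches the lower bound for Abca8a under the same diet, 1.01 or 0.77. Abca9 (110100749 to 110168196), on the other side, ranged from 9.67 to 14.1 CPM in young AL and from 11.1 to 19.4 in old AL mice, with a difference of 0.36 (0.02 to 0.71, FDR 0.498), and of 0.27 under EOD (-0.10 to 0.65). In EOD mice it ranged from 11.6 to 14.1 CPM when young and from 13 to 16.5 when old, and 82 to 171 reads per mouse stand behind these values.

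**Figure D3:**
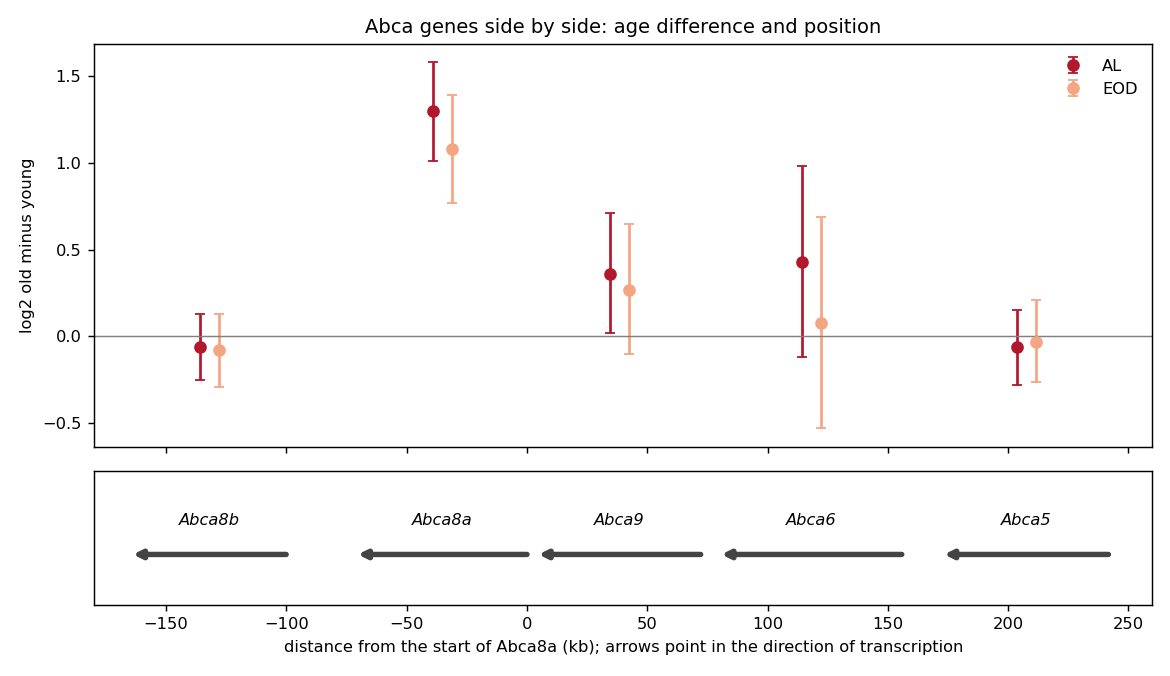
Upper panel, log2 age difference (vertical axis) of 5 neighbouring A-class transporter genes under AL and EOD with 95% intervals as bars; lower panel, their positions as kb from the start of Abca8a, with arrows in the direction of transcription. Abca8a at 1.30 and 1.08 stands above its neighbours, whose estimates run from -0.08 to 0.43.

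The neighbours further upstream, Abca6 and Abca5, were singled out for their position after their values were seen. Abca6 had an age difference of 0.43 (95% interval -0.12 to 0.98) under AL and 0.08 under EOD, and Abca5 of -0.06 and -0.03. More widely, 34 tested genes that are not among the 10 began within 100 kb of one of them. Of these 0 passed FDR 0.1 for age under either diet in edgeR, DESeq2 or limma voom. An unadjusted p under 0.05 in edgeR was found for 2 of them under AL and 4 under EOD, and for 9.52% and 5.74% of all genes tested. Gm25447, which lies inside Abcg1 on the same strand, had no reads, and Gm11697, which lies inside Abca8b on the opposite strand, had at most 18 reads in a mouse. Reads were counted by strand, so that those of Gm11697 are kept apart from those of Abca8b.

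Abca8a and Abca8b are similar enough for reads to be confused, and the extent of this was measured on the transcripts. Their longest reading frames shared 74.8% of aligned bases, against 71.0% for Abca8a with Abca9 and 71.1% for Abca8b with Abca9. Of the 6394 different stretches of 50 bases (the read length) in Abca8a transcripts, 105 also occurred in Abca8b, or 1.64%. Of the 7401 in Abca8b, 2.45% occurred in another gene. Reads that map equally well to several places fall below the mapping quality required by the counting and were dropped, so that nearly all of both genes remained countable. Each of the other 8 genes shared at most 0.225% of its stretches.

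Set against each other per length, the pair changed order with age. The ratio of Abca8a to Abca8b counts per kilobase was 0.534 to 0.881 in young AL mice and 0.725 to 0.833 in young EOD mice. In old AL mice it was 1.65 to 2.29 and in old EOD mice 1.46 to 2.04. Abca8b was thus the more abundant of the pair in all 7 young mice and Abca8a in all 8 old mice. A ratio within a library does not depend on how the library was scaled.

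**Figure D4:**
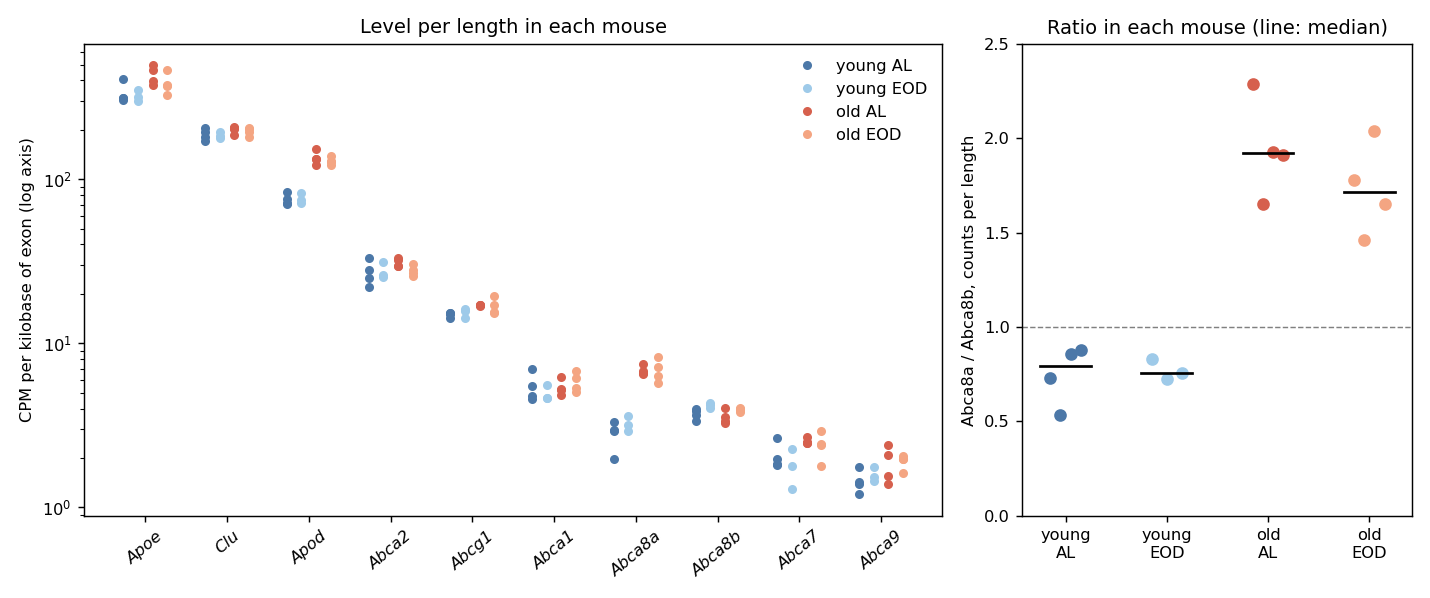
Left, level per length of each gene in each mouse (CPM per kilobase of exon, log axis), coloured by group; right, ratio of Abca8a to Abca8b counts per length in each mouse, with lines for group medians and a dashed line at 1. All young mice lie below a ratio of 1 and all old mice above it.

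Per length, the level of the 10 genes spanned more than 2 orders of magnitude. Averaged over the 15 mice, Apoe stood at 371 ± 62.6 CPM per kilobase of exon (SD), Clu at 193 ± 11.6 and Apod at 106 ± 30.1. Abca2 (28.5 ± 3.29) and Abcg1 (16.1 ± 1.35) followed. Each of these was above the next in 15 of 15 mice. Abca1 averaged 5.44 ± 0.776, Abca8a 5.03 ± 2.10 and Abca8b 3.82 ± 0.317, and the place of Abca8a among them changed with age. It was below Abca1 in all 7 young mice and above it in all 8 old mice, as it was with Abca8b. Abca7 at 2.22 ± 0.444 was above Abca9 at 1.70 ± 0.336 in 13 of 15 mice. The 10 genes together summed to 1855 to 2084 CPM in young AL mice, 1814 to 1959 in young EOD, 2199 to 2579 in old AL and 2126 to 2437 in old EOD mice. Most of that sum was Apoe, Clu and Apod.

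The sequences just upstream of Apod, Abca8a and Abca8b are shown because the first 2 rose together and the third, a close relative beside Abca8a, did not. RefSeq windows of GRCm38.p6 (250 bases before to 50 after a gene start) were matched for 8 of the 10 genes, all but Clu and Abcg1. Each line gives 200 bases on the gene's strand, minus in all cases, 5′ to 3′, with matches to the motifs searched in capitals.
Apod, chr16:31314809-31315008: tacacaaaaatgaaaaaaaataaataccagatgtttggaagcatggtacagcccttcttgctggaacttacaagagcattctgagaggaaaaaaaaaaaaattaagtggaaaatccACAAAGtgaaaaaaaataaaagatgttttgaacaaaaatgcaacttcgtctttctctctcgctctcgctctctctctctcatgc
Abca8a, chr11:110095979-110096178: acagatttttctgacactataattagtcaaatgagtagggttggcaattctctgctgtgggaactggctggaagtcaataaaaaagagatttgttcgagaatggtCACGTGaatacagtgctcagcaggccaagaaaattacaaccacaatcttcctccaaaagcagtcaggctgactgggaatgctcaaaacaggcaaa
Abca8b, chr11:109995846-109996045: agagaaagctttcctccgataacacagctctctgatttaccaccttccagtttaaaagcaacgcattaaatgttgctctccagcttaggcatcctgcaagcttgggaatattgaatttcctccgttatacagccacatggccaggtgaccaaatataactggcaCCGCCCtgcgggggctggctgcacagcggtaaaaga
Abca8a holds CACGTG, the E-box core that reads the same on both strands, with its first base at -136 from the RefSeq start. Abca8b holds CACGTG as well, but after its start, at position 18 (outside the stretch shown), and GGGCGG, the GC box, on the opposite strand at -36. Apod holds ACAAAG, a core bound by factors of the Sox family, at -84. Among all 32851 promoter windows of 300 bases, 7.15% held CACGTG, 35.66% GGGCGG and 18.71% ACAAAG on either strand, so that these are common words. The DR4 element recognised by the liver X receptors was searched only in a strict form. This was RGKTCA-NNNN-RGKTCA (R is A or G, K is G or T, N is any base). This form, the single unit AGGTCA and TCACNCCAC, which SREBP factors can bind, were not found on either strand in the windows of these 8 genes. Among all windows 0.08%, 16.26% and 1.24% hold them. Looser forms of DR4 were not searched, so that nothing is said of them. Of the other matched genes, Abca1 held the E-box core, the GC box was found at Abca1, Abca2 and Abca7, and the Sox core at Abca1, Abca7 and Apoe. TATAAA was found in the windows of Abca1 and Apoe (13.62% of all windows). Absence says only that these letters are not in these windows. The 3 stretches shared no searched motif.

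Diet differences were smaller than the age differences of Apod and Abca8a for each of the 10 genes, and none passed the test. In young mice 0 of the 10 and 0.0% of all genes passed FDR 0.1 (edgeR), and 0 of the 10 had an unadjusted p under 0.05, as did 657 of all 15864 genes. DESeq2 called 1 gene, none of the 10, and limma voom with sample quality weights called 0. In old mice 0 of the 10 and 0.0% of all genes passed, 0 of the 10 and 409 of all genes had an unadjusted p under 0.05, and DESeq2 called 0 genes. Limma voom called 2 genes, none of the 10, and gave an unadjusted p under 0.05 to 2 of the 10 (Apoe and Abca2) and to 885 of all genes. The largest diet estimates of the 10 were small. In young mice they were 0.22 for Abca8a (95% interval -0.10 to 0.55), -0.20 for Abca7 (-0.60 to 0.19) and 0.17 for Abca8b (-0.03 to 0.38). Without the third young AL mouse the estimate for Abca8a was 0.32 (FDR 1.0). In old mice they were -0.18 for Apoe (-0.40 to 0.05), -0.17 for Abca2 (-0.37 to 0.04) and 0.15 for Abca8b (-0.04 to 0.35). All 3 young EOD mice had more Abca8b than any young AL mouse, the only gene of the 10 so placed, where 2.4% of all genes were higher without overlap. For the risen pair the intervals are narrow in old mice, -0.22 to 0.09 for Apod and -0.26 to 0.28 for Abca8a.

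**Figure D5:**
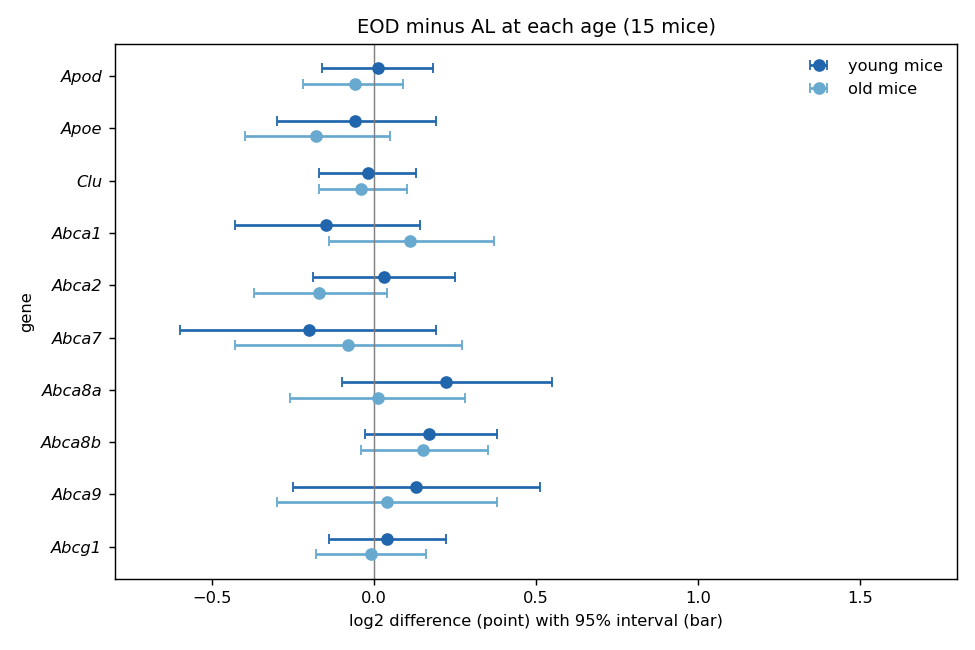
Log2 difference between EOD and AL mice (horizontal axis) for each gene in young (dark blue) and old mice (light blue), with points for estimates from 15 mice and bars for 95% intervals. Every interval includes 0, and no estimate exceeds 0.22 in size.

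Whether age acted differently under the diets was asked with the interaction, the EOD age difference minus the AL one. It passed for 0 of the 10 genes and 0.0% of all genes (edgeR). An unadjusted p under 0.05 was found for 0 of the 10 and for 362 of all genes, and DESeq2 and limma voom called 0 genes. The estimate was -0.08 for Apod (95% interval -0.31 to 0.16) and -0.22 for Abca8a (-0.64 to 0.20). For Abca8a the interval is wide enough to hold both a smaller and a slightly larger rise under EOD. The widest departures among the others were 0.26 for Abca1 (-0.12 to 0.64) and -0.20 for Abca2 (-0.50 to 0.10).

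The mice had been sequenced in 3 lanes named in the file headers. Every group was present in lanes 1 and 2, while young EOD mice were missing from lane 3. Within single lanes the age difference of Apod under AL was 0.69 to 0.99 and under EOD 0.72 to 0.83. That of Abca8a was 0.99 to 1.64 and 0.91 to 0.98. Apoe varied more, from 0.18 to 0.54 under AL and from 0.08 to 0.57 under EOD. Each lane held only 1 or 2 mice of a group, and the only young AL mouse of lane 2 was the third, on which the values of 0.99 for Apod, 0.99 for Abca8a and 0.54 for Apoe under AL rest. Without lane 2 the AL differences were 0.69 and 0.79 for Apod, 1.18 and 1.64 for Abca8a and 0.18 and 0.25 for Apoe.

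Of the other genes of lipid transport, 80 in 6 lists, 56 could be tested, and most did not pass FDR 0.1 for age. Under AL 3 passed as higher and 0 as lower, where 1.09% of all genes tested passed. Under EOD 1 passed as higher and 0 as lower, where 0.29% of all genes did. The lists were made with earlier results of these data known, so that nothing is read from these counts. Trem2, a microglial receptor for lipids and lipoproteins, averaged 8.75 ± 2.58 CPM in young AL (n = 4), 5.88 ± 0.121 in young EOD (n = 3), 15.7 ± 2.19 in old AL (n = 4) and 11.7 ± 0.794 in old EOD mice (n = 4). Its age difference was 0.84 under AL (SE 0.169, FDR 0.0136) and 0.99 under EOD (SE 0.201, FDR 0.0335). The third young AL mouse had the highest Trem2 of its group, 12.3 CPM. When it was left out, the difference was 1.07 under AL (FDR 0.000297) and 0.99 under EOD (FDR 0.00345). Npc2 and Npc1, which hand cholesterol out of lysosomes, rose by 0.36 (FDR 0.0188) and 0.32 (FDR 0.0494) under AL. Without the third young AL mouse Npc2 passed under both diets (FDR 0.0455 and 0.0847) and Npc1 under neither.

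In the remaining lists 0 genes passed for age under either diet (edgeR), and DESeq2 called 0 as well. These were 5 tested of 19 other apolipoproteins (2 with an unadjusted p under 0.05 under AL and 0 under EOD) and 6 of 15 other A- and G-class transporters (0 and 0). They also held 8 of 8 lipoprotein enzymes (0 and 0) and 9 of 9 genes of the liver X receptor axis (2 and 1). Of 12 tested lipoprotein receptors 1 passed, Trem2, and of 16 intracellular carriers 2 passed under AL and 0 under EOD, where 2 had an unadjusted p under 0.05 and DESeq2 called 1. Over all genes tested, 9.52% under AL and 5.74% under EOD had an unadjusted edgeR p under 0.05. Median age differences over these 6 lists ran from -0.14 to 0.09 under AL and from -0.06 to 0.10 under EOD.

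Markers of the cell types that brain tissue can hold were examined beside the 10 genes. Unadjusted counts for these markers stand beside shares of 9.52% under AL and 5.74% under EOD over all genes (edgeR p under 0.05). Of 8 oligodendrocyte markers 1 passed for age under AL, Mbp (0.39, FDR 0.0515), and 0 did without the third young AL mouse. Under EOD 0 passed and DESeq2 called 0, and the 3 with an unadjusted p under 0.05 had estimates below 0 (Mog -0.25, Mobp -0.22 and Opalin -0.50). The median age difference of the 8 markers was 0.15 under AL and -0.13 under EOD, and whether these differ was not tested. The oligodendrocyte markers summed to 5932 to 7042 CPM in young AL, 6602 to 7146 in young EOD, 6963 to 7756 in old AL and 6569 to 7235 in old EOD mice. Young and old overlapped in this sum under both diets, and its part in the values of Apod and Abca8a was not tested. Of 6 astrocyte markers 1 passed under each diet, Gfap, a filament protein of astrocytes, at 1.22 under AL (FDR 1.71e-09) and 1.10 under EOD (FDR 1.26e-07). An unadjusted edgeR p under 0.05 was found for 1 under AL and 3 under EOD. Those under EOD were Gfap and, with estimates below 0, Aldh1l1 (-0.24) and Gja1 (-0.20). The astrocyte sum overlapped between the ages, at 4188 to 4720 CPM in young AL and 4513 to 5022 in old AL mice.

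Of 7 microglial markers 2 passed under both diets, C1qa and C1qb, which encode chains of complement C1q. C1qa rose by 1.10 under AL and 0.83 under EOD. The microglial sum did not overlap between the ages, at 252 to 267 CPM in young AL, 246 to 253 in young EOD, 312 to 361 in old AL and 288 to 343 in old EOD mice. C1qa and C1qb are in this sum and averaged 25.2 and 32.3 CPM in young AL and 53.8 and 60.8 in old AL mice. The other markers did not pass, with AL estimates of 0.17 (Cx3cr1), -0.02 (P2ry12), 0.32 (Tmem119), 0.18 (Csf1r) and 0.18 (Aif1). An unadjusted edgeR p under 0.05 was found for 3 markers under AL and 5 under EOD. Under AL the sum thus moved with age in large part through C1qa and C1qb. Without the third young AL mouse Aif1 had an AL estimate of 0.60. Under EOD C1qa and C1qb averaged 22.7 and 29.7 CPM in young and 40.4 and 47.5 in old mice. The other markers had EOD estimates above 0: 0.28 (Cx3cr1), 0.12 (P2ry12), 0.39 (Tmem119), 0.22 (Csf1r) and 0.54 (Aif1). The part of the microglial sum in the values of Apoe, Apod and Abca8a was not tested.

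Of 4 markers of oligodendrocyte precursors 0 passed under either diet in edgeR on 15 mice. Under AL 2 had an unadjusted edgeR p under 0.05, and they went opposite ways (Gpr17 at -0.49 and Neu4 at 0.34). Under EOD 1 had one, Gpr17 at -0.63, and DESeq2 called 1 under each diet. Without the third young AL mouse Gpr17, a receptor of cells about to become oligodendrocytes, was lower in old mice under EOD (-0.63, FDR 0.099). The precursor sum overlapped between the ages under AL, at 138 to 151 CPM in young and 127 to 144 in old mice, and was lower without overlap under EOD, at 146 to 167 in young and 124 to 137 in old mice. The part of this in the values of the 10 genes was not tested. None of the 5 neuronal, 5 endothelial or 6 choroid plexus markers passed, and 0 had an unadjusted p under 0.05 or were called by DESeq2. Choroid plexus markers nevertheless differed widely between mice, from 333 CPM in the third young AL mouse to 1234 in an old EOD mouse, with overlap between all 4 groups. Among 6 mural, 6 meningeal and 5 blood markers 0 passed under either diet and DESeq2 called 0, while 1, 2 and 0 had an unadjusted p under 0.05 under AL and 1, 0 and 1 under EOD. Blood markers summed to 28.0 to 50 CPM in young AL and 42.1 to 62.4 in old AL mice, which overlapped, and to 44.6 to 48.7 in young EOD and 50.8 to 101 in old EOD mice, which did not. The lowest of these, 28.0, was the third young AL mouse. Mural markers did not overlap under EOD either, at 205 to 225 CPM in young and 180 to 204 in old mice.

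Of 6 pituitary markers, Gh and Prl passed under AL through the fourth old AL mouse, and Lhb was at 0 in every mouse. That mouse had 313.9 CPM of Apod and 42.3 of Abca8a, inside the range of the other old mice. Without it and without the third young AL mouse, Apod and Abca8a still passed under both diets.

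How far the 10 genes varied together was described within groups. Deviations of log2 CPM from the group mean were correlated over 14 mice, leaving out the third young AL mouse. These values share libraries, so that depth and base composition enter all of them. Over the 45 pairs of the 10 genes Pearson's r ran from -0.82 to 0.72 with a median of 0.03, and 24 pairs were above 0. Apoe, Abca2 and Abca7 went together (r = 0.72 for Apoe with Abca7, 0.71 for Abca2 with Abca7 and 0.69 for Apoe with Abca2). The lowest value was that of Clu with Abca8a. The 10 genes thus did not rise and fall as 1 group within groups.

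Out of 14124 genes whose mean log2 CPM was 1 or more, the most similar to each of the 10 in these deviations were listed. For Apod they were Drp2 (r = 0.92), Zfp618 (0.90) and Hepacam (0.89). For Abca8a they were Gabrb2 (0.93), Palm2 (0.89) and Epb41 (0.88), and for Apoe Dctn1, Egln2 and Map2k2 (0.97 each). For Clu they were Mad2l1bp (0.97), Eif3k (0.94) and Tpi1 (0.94). The 3 nearest genes of the other 6 had r between 0.84 and 0.97. Each named gene was picked as among the highest of 14124 over 14 mice. How high such a pick runs for unrelated genes was not tested, so that nothing is read from the names. The same r was taken with the summed markers of the 11 cell type lists, 110 values in all. The largest in size were those of Clu with oligodendrocyte precursor markers (r = -0.85) and astrocyte markers (-0.81) and Abca9 with meningeal markers (0.81). Next came Apoe with microglial markers (0.74), and Apod with mural and Abca8b with endothelial markers (0.69 each). These too are the extremes of many values, and nothing is read from them.

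The spread within groups also set the genes apart. On the log2 scale the SD within groups over these 14 mice was 0.111 for Apod, beside a median of 0.0967 over 688 genes of like level. For Apoe it was 0.188, beside 0.093 over 168 genes. For Abca8a it was 0.21 beside 0.144 and for Clu 0.0883 beside 0.0997. Apoe thus varied more between mice of 1 group than genes of its level commonly did, and Abca8b, at 0.0945 beside 0.149, varied less.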

How the data were processed

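The authors aligned 50-base single-end reads to GRCm38 with STAR, assigned them to genes of Ensembl release 79 by means of featureCounts 1.5.0-p1 (minimum mapping quality 5, primary alignments, reverse strand), and the deposited values are raw counts per gene without normalization. The STAR version is not given in the sources used here. Samples were grouped by the labels, and 42462 of 43629 identifiers were given a symbol.

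Everything else was computed here. Counts were tested in R 4.3.3 with edgeR 4.0.16 (TMM scaling, filterByExpr, 4 group means, quasi-likelihood test, Benjamini-Hochberg adjustment over 15864 genes, FDR under 0.1). The SE is the size of the log2 difference divided by the square root of F. CPM are TMM-scaled, and log2 CPM used a prior count of 2. Depth, from 5198748 to 13610729 counts, limits precision most for low genes. The steps were tested on simulated data. Alternatives were other scalings, filters and thresholds, DESeq2 1.42.0, limma 3.58.1 voom with quality weights, lane or replicate terms, fits of the compared groups alone and leaving out each mouse. DESeq2 and the replicate block on 14 mice and a fit of 13 mice were chosen after seeing the data. The 10 genes, the gene lists and these choices were made with earlier results of these data known. Named from the lists were genes past FDR 0.1 for age. Named as neighbours were those that overlap 1 of the 10 genes or pass FDR 0.1, and named as alike were the 3 genes with the highest r. Replicate libraries were compared for duplicates (chi-square per degree of freedom 3.01 to 16.6 over 21 pairs of replicates, 0 of them identical). The paper states that mice shared cages at the start of the study, and the labels do not name the cages. The p-values treat each mouse as separate, and an effect of the cage could not be told apart from a group difference.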

Additional observations from a re-analysis of the deposited data

Results flagged for a closer look

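Apoe in the fourth young AL mouse was flagged because it lay far from the other 3 mice of its group. It stood at 808.1 CPM, against 601.2 to 622.7 in the other young AL mice, and the gap to the nearest mouse made up 0.896 of the range of the group (above Dixon's 95% critical value for 4 mice). It was the only value so flagged among 30 groups of 4 mice (10 genes in 3 groups), where chance alone flags about 1 group in 20.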

How the results depend on the processing

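Apod and Abca8a passed for age under both diets in 28 of 28 alternatives each, with log2 differences of 0.78 to 0.90 and 1.16 to 1.41 under AL and of 0.72 to 0.82 and 0.98 to 1.17 under EOD. The count of the 10 genes past the threshold stayed at 2 under EOD and at 2 or 3 under AL, the gene gained being Apoe. Apoe passed with every gene of at least 1 count (FDR 0.000205), with DESeq2 (FDR 0.0886) and without the fourth young AL mouse (FDR 0.028). For diet and for the interaction 0 of the 10 passed in any alternative. Of 1278 alternative values of uncalled differences, 1275 lay within 1 SD of the reported value and uncalled, the other 3 being those of Apoe, and 69 turned sign, all with reported sizes of at most 0.13.

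Counts over all genes moved more, and the cause was not tested. For age under AL, 173 genes became 444 with every gene of at least 1 count and 86 with only the groups compared. For age under EOD, 46 became 100 with every gene of at least 1 count, 70 with DESeq2 and 125 with voom quality weights, and in the alternatives added after the data had been seen, 97 with DESeq2 on 14 mice and 79 on 13 mice. Leaving out 1 mouse at a time gave 102 to 221 genes under AL, the lowest without the third old AL mouse. Under EOD it gave 19 to 76, with 76 without the third young AL mouse, 19, 21 and 20 without young EOD mouse 1, 2 and 3 and 24 without the second old EOD mouse. For diet in young mice 0 genes became 26 with every gene of at least 1 count and 1 with DESeq2. In old mice 0 became 27 with every gene of at least 1 count, and 2 each with voom quality weights, with lane in the model and with DESeq2 on 14 mice. For the interaction 0 became 26 with every gene of at least 1 count.

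Mice with the same replicate number share only a number: over 21 such pairs the correlation of their deviations from group means ran from -0.113 to 0.113, and 2 exceeded 0.1. With replicate number as a block, 155 genes passed for age under AL and 35 under EOD, with Apod and Abca8a in both, and 0 genes passed for diet at either age or for the interaction.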
